A study of Mus musculus with 6 samples.

Results

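The genes described here are 7 enzymes of glutamine, aspartate and proline metabolism, *Glul*, *Glud1*, *Got1*, *Got2*, *Gpt2*, *Aldh18a1* and *Pycr1*, among the 16381 genes with a value in the table. They were chosen by name for the reactions they catalyse, with earlier results of these data known. Their rows were found through their Ensembl identifiers, and all 7 were listed and had enough counts to be tested. The values come from bulk RNA sequencing of aILC2s, which are type 2 innate lymphoid cells sorted from the lungs of wild type BALB/c mice, stated to be females aged 6 to 8 weeks, after intranasal IL-33 at 0.5 µg per day for 3 days. Sorted cells, with a stated purity above 95%, were kept in culture for 24 h and received either melatonin at 250 µM or DMSO alone (vehicle), with 3 samples in each group. IL-33 activation was thus shared by both groups. A normalized count is the estimated number of reads of a gene divided by a size factor for its sample.

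Glutamine enters mitochondria and is turned into glutamate there, and glutamate dehydrogenase or an aminotransferase then converts glutamate to α-ketoglutarate, a TCA cycle intermediate. Aminotransferases move the amino group of glutamate onto oxaloacetate or pyruvate and so make aspartate or alanine, and the aspartate pair also carries reducing equivalents between cytosol and mitochondria in the malate-aspartate shuttle. Proline is built from glutamate in steps that consume NAD(P)H, and its breakdown leads back to glutamate. Proliferating lymphocytes are known for heavy use of glutamine, and aspartate is a precursor of purines and pyrimidines.

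The 6 libraries held between 17056268 and 20511710 estimated counts. Within groups, libraries differed by more than counting noise, with a chi-square per degree of freedom between 6.16 and 35.3, so that no library was a copy of another. The labels do not say whether the samples came from separate animals, and p-values therefore measure the spread between these samples, which may be technical. The library names number melatonin and vehicle samples in separate runs of numbers, and any batch that followed them cannot be told apart from the treatment. Melatonin replicates 2 and 3 stood apart from the other 4 libraries in their sex-linked transcripts. In these 2 libraries the female-specific *Xist* reached 579 and 1091 normalized counts and the Y-linked *Ddx3y* was listed at 0. In the other 4, *Xist* did not exceed 13.6 and *Ddx3y* lay between 746 and 1071, although the mice are stated to be female. All 7 genes are autosomal, and calls of genes named below that changed without these 2 libraries, or without melatonin replicate 1, are given with the gene. All 11 ILC2 markers were listed, and their summed level was 111397 to 117498 in vehicle and 87094 to 89553 in melatonin. The defining ILC2 genes *Gata3* (17890 to 24588 normalized counts) and *Il1rl1* (7698 to 16787) were high in all 6 samples, while *Cd4* and *Cd8a* were not among the genes listed. The summed level of 7 epithelial markers, all listed, was 935 to 2325 in vehicle and 1042 to 1237 in melatonin, and that of 6 listed macrophage and monocyte markers out of 7 was 1348 to 1532 and 362 to 808. Of the epithelial markers, 1 was higher (*Epcam*, from 623 to 745 in vehicle to 1016 to 1230 in melatonin, most of the melatonin sum) and 4 were lower, among them the alveolar *Sftpc*, from 122 to 389 to 3.02 to 6.54. Summed markers of NK cells (4 of 5 listed) went from 203 to 266 in vehicle to 19.6 to 30.6 in melatonin, of endothelial cells (2 of 4) from 1008 to 1069 to 310 to 416, of B cells (2 of 5) from 289 to 322 to 131 to 162, and of T cells (2 of 6) from 198 to 239 to 40.2 to 119. Those of neutrophils (2 of 5) and of mast cells and basophils (2 of 5) did not exceed 70.0 in any sample, and none of 4 fibroblast markers was listed. The part of these cells in the changes of the 7 enzymes was not tested. In such bulk samples, fewer cells of a type and less RNA per cell cannot be told apart.

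The promoters of 3 of the 7 genes are shown because they hold one of the motifs searched, the sites of transcription factors known to act on genes of metabolism. Each runs from 250 bases before to 50 after the start site, taken from RefSeq on build GRCm38.p6, an older build than the GRCm39 of the other positions given here, and capitals mark the motif. All 7 genes had a promoter there. The 3 shown lie on the minus strand, *Got1* at chr19:43524556-43524855, *Pycr1* at chr11:120643699-120643998 and *Aldh18a1* at chr19:40588414-40588713.
Got1: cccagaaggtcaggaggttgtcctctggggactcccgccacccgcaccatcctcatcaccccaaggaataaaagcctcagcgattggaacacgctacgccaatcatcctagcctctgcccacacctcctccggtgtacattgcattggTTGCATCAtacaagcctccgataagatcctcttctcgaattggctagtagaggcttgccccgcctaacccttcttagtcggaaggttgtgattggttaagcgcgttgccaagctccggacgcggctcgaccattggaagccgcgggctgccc
Pycr1: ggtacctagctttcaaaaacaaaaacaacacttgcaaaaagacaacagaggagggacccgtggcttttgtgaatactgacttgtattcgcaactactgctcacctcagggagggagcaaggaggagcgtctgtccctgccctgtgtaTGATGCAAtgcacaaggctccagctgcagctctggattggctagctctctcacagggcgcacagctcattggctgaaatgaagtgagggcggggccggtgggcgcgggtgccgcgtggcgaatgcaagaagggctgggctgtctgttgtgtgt
Aldh18a1: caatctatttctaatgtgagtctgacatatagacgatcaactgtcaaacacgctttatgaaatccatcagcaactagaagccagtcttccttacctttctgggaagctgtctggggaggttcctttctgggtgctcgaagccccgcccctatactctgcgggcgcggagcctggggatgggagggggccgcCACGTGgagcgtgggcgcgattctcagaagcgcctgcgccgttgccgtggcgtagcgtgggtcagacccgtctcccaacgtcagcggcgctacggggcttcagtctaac
The motifs, searched on both strands, were TGATGNAA for the C/EBP-ATF composite element bound by ATF4, CACGTG for the E-box bound by MYC and TGACNNNGC for the antioxidant response element bound by NRF2. The first was found in *Got1*, on the opposite strand, and in *Pycr1*, starting 102 and 103 bases before the start site, and in 3.97% of the 32851 promoters of that length in the table. The E-box was found in *Aldh18a1*, starting 59 bases before the start site, and in 7.15% of all promoters. The third, in 12.4% of all promoters, was in none of the 7. A match is a description of the letters and not a sign of binding.

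To find whether melatonin altered these enzymes, normalized counts were compared with limma on the log2 of the count plus 1, over the 14419 genes that reached 10 in at least 1 sample. *Pycr1*, *Got2*, *Got1* and *Glud1* were lower and *Glul* was higher in melatonin-treated aILC2s at an adjusted p-value under 0.05, while *Gpt2* and *Aldh18a1* were not past the threshold. Of all genes tested, 49.2% were called, 24.5% higher and 24.7% lower, so nothing particular to these enzymes can be read from 5 calls among 7. The groups did not overlap for the same 5 genes, as for 60.4% of all genes tested, of which 30.0% had all melatonin samples above vehicle and 30.3% below. The median log2 fold change of the 7 was −0.57, against a median of −0.00 over all genes tested. Since the 7 were chosen with earlier results of these data known, this difference cannot show a shift of these enzymes as a group.

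**Figure D1:**
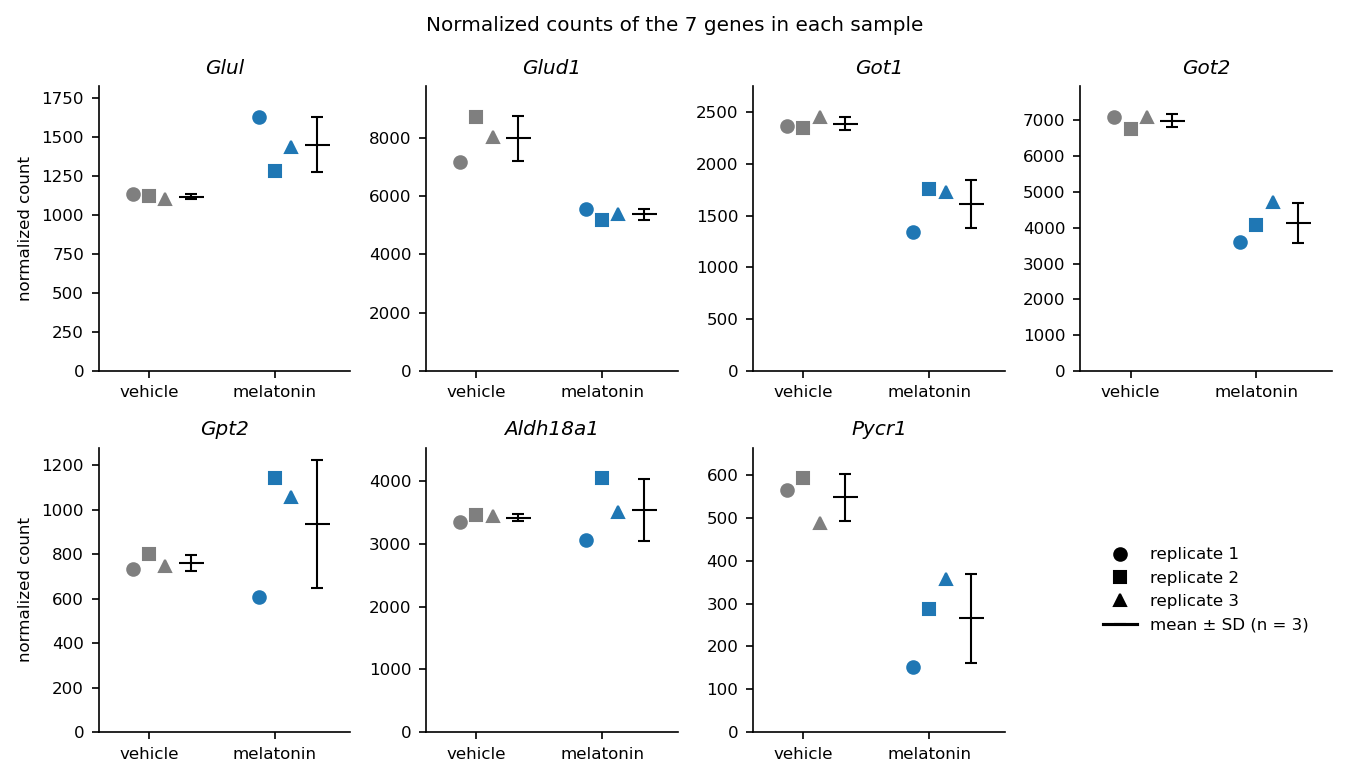
Normalized counts (vertical axes, each from 0) of the 7 genes in 3 vehicle (grey) and 3 melatonin (blue) samples, with symbols for the replicate number and bars for the mean ± SD. Melatonin values lie below all vehicle values for *Glud1*, *Got1*, *Got2* and *Pycr1* and above them for *Glul*, and the groups overlap for *Gpt2* and *Aldh18a1*.

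*Glul* (ENSMUSG00000026473) encodes glutamine synthetase, which joins ammonia to glutamate, and lies on chromosome 1 of GRCm39 from 153775690 to 153785469. It was at 1132, 1119 and 1101 normalized counts in vehicle replicates 1, 2 and 3 and at 1632, 1280 and 1437 in melatonin replicates 1, 2 and 3. The highest vehicle sample was only 1.03-fold above the lowest, and the lowest melatonin sample was above all of them. The mean rose by 29.8%, from 1117 ± 15.4 (SD, n = 3) to 1450 ± 176, a log2 change of 0.37, with SE 0.10 and a limma adjusted p of 0.0147. The call was narrow, since without vehicle replicate 2 the same log2 fold change had a limma adjusted p of 0.0503.

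*Glud1* (ENSMUSG00000021794, chromosome 14, 34032583 to 34067642) encodes the mitochondrial glutamate dehydrogenase, which releases ammonia from glutamate. Its vehicle values were 7171, 8734 and 8048 normalized counts, and its melatonin values were 5567, 5188 and 5388. The melatonin samples were the tighter group, with a coefficient of variation of 3.52% against 9.81%, and all were below vehicle. *Glud1* fell by 32.6%, that is, −0.57 on the log2 scale (SE 0.09, adjusted p = 0.00105 in limma). The annotated processed pseudogene *Glud-ps*, to which the authors' algorithm could assign some of its reads, held 5.73% to 7.02% of the *Glud1* value in each sample, and the sum of both fell by 32.5%. *Shld2* overlaps *Glud1* on the opposite strand by 843 bases and was listed at a mean of 275.5.

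*Gls2*, which encodes an enzyme that releases glutamate from glutamine, was low in all samples, between 10.9 and 28.0 normalized counts, and not past the threshold. *Kyat1*, *Kyat3* and *Nit2*, of the glutamine transaminase route, had log2 fold changes of 0.26, −0.02 and 0.20 and were not past the threshold.

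*Got1* and *Got2* encode the cytosolic and the mitochondrial aspartate aminotransferase, which interconvert glutamate and oxaloacetate with α-ketoglutarate and aspartate. *Got1* (ENSMUSG00000025190, chromosome 19, 43488188 to 43513674) was at 2362, 2351 and 2458 normalized counts in vehicle and at 1347, 1756 and 1732 in melatonin. Melatonin replicate 1 was the lowest, and no melatonin sample reached the vehicle range. The mean fell by 32.6%, that is, −0.58 on the log2 scale (SE 0.11, adjusted p = 0.00273 in limma).

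*Got2* (ENSMUSG00000031672, chromosome 8, 96590760 to 96615190) was at 7087, 6775 and 7110 normalized counts in vehicle and at 3595, 4080 and 4727 in melatonin. Its mean fell by 40.9%, from 6991 ± 187 (SD, n = 3) to 4134 ± 568, a log2 change of −0.77, with SE 0.10 and a limma adjusted p of 0.000494. Again melatonin replicate 1 was the lowest sample. The processed pseudogene *Got2-ps1* was listed at 1577 to 1712 in vehicle and 943 to 1220 in melatonin, and its reads cannot be told apart with certainty from those of *Got2*. The sum of both fell by 39.2%.

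*Gpt2* (ENSMUSG00000031700, chromosome 8, 86218810 to 86255577) encodes the mitochondrial alanine aminotransferase, which makes α-ketoglutarate and alanine from glutamate and pyruvate. Vehicle samples were at 732, 801 and 746 normalized counts. Melatonin replicate 1, at 608, was below all of them, and melatonin replicates 2 and 3, at 1142 and 1056, were above all of them. The log2 fold change was 0.25 with a 95% confidence interval from −0.23 to 0.72 (limma adjusted p = 0.349), which covers changes from 0.855-fold to 1.65-fold. Without melatonin replicate 1 it was 0.53 (limma adjusted p = 0.00136), and without melatonin replicates 2 and 3, where 1 melatonin sample is assumed to vary as the vehicle samples do, it was −0.32 (limma adjusted p = 0.0413). The direction for *Gpt2* thus depended on which melatonin libraries entered. *Gpt*, of the cytosolic enzyme, was at 96.1 to 139 over the 6 samples and not past the threshold, with a log2 fold change of −0.08.

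Among the 8 other aminotransferases tested, 2 were higher and 2 lower, where 49.2% of all genes were called. *Bcat1*, the cytosolic enzyme for branched-chain amino acids, had the largest fall, from 2936, 3044 and 2830 to 547, 1332 and 1356 normalized counts, a log2 fold change of −1.56. Its mitochondrial partner *Bcat2* fell by 0.52 on the log2 scale. *Oat*, which links ornithine to glutamate and proline, rose from 2983, 3113 and 2970 to 4007, 4658 and 4208, a log2 fold change of 0.50. The largest rise was that of *Abat*, the aminotransferase of γ-aminobutyrate, but from between 6.56 and 11.5 normalized counts only. *Psat1*, of serine synthesis, was at −0.25 and not past the threshold, but was called lower (−0.57, limma adjusted p = 0.000644) without melatonin replicates 2 and 3.

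Aspartate aminotransferases work in the malate-aspartate shuttle beside 2 malate dehydrogenases and carriers of the inner mitochondrial membrane. Of the 6 other shuttle and glutamate carrier genes tested, 1 was higher and 1 lower, where 49.2% of all genes were called. *Mdh1*, of the cytosolic malate dehydrogenase, rose from 7080, 7678 and 7223 to 9615, 10959 and 10261 normalized counts, that is, 0.49 on the log2 scale (SE 0.08, adjusted p = 0.00128 in limma), against the direction of *Got1* in the same compartment. *Slc25a12*, an aspartate-glutamate carrier, fell by 0.44 on the log2 scale, from 2135, 2071 and 2020 to 1546, 1444 and 1613. The mitochondrial *Mdh2* at −0.18, the oxoglutarate carrier *Slc25a11* at 0.17 and the second aspartate-glutamate carrier *Slc25a13* at −0.07 were not past the threshold. Without melatonin replicates 2 and 3, *Mdh2* was called lower (−0.32) and *Slc25a11* higher (0.28), the latter also without melatonin replicate 2 (0.25).

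With all 6 samples, genes listed for the use of aspartate were lower or not called. The list is broader than its name, since the enzymes of *Adsl*, *Asl* and *Asrgl1* do not themselves consume aspartate. Of the 8 listed genes tested, 5 were lower (*Cad*, *Ass1*, *Adsl*, *Adss2* and *Asrgl1*) and 0 higher, where 24.7% of all genes were lower. The median log2 fold change of the 8 was −0.41. *Cad*, which uses glutamine and aspartate at the start of pyrimidine synthesis, fell from 2946, 2982 and 3291 to 957, 1285 and 1418 normalized counts, a log2 fold change of −1.35. *Ass1*, argininosuccinate synthetase, fell by 61.8%, from between 194 and 229 to between 61.4 and 91.9. *Asns*, asparagine synthetase, was not called (log2 fold change −0.02) and had the order of samples seen for *Gpt2*, with melatonin replicate 1 at 4427, below the vehicle range of 5824 to 6628, and replicates 2 and 3 at 7262 and 7220, above it. It was called higher without melatonin replicate 1 (0.21, limma adjusted p = 0.0319), which makes 1 higher gene among the 8, and lower without replicates 2 and 3 (−0.50, limma adjusted p = 0.00417). Of the 10 glutamine amidotransferases, enzymes that take the amide nitrogen of glutamine, 4 were lower (*Cad*, *Pfas*, *Ctps1* and *Ppat*) and 2 higher (*Gfpt2* and *Ctps2*). These 6 calls among 10 are a share near the 49.2% called among all genes. *Ctps1* and *Ctps2*, both CTP synthases, went opposite ways, at −0.51 and 0.38. *Gfpt2*, of hexosamine synthesis, had the largest rise, 0.75 on the log2 scale, from between 60.9 and 91.5 normalized counts to between 98.5 and 148. Its limma adjusted p was 0.0255 with all samples and 0.0586 to 0.0954, no longer past the threshold, without vehicle replicate 2 or 3 or without melatonin replicate 1 or 2. Without melatonin replicates 2 and 3 together, 6 amidotransferases were lower, *Asns* and *Gmps* being the added ones.

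*Aldh18a1* (ENSMUSG00000025007, chromosome 19, 40538698 to 40576949) encodes pyrroline-5-carboxylate synthase, which starts proline synthesis from glutamate. Its values were 3348, 3454 and 3435 normalized counts in vehicle and 3064, 4042 and 3495 in melatonin. Melatonin replicate 1 was below all vehicle samples and replicates 2 and 3 were above them, the order seen for *Gpt2*. The log2 fold change was 0.04 with a 95% confidence interval from −0.19 to 0.27 (limma adjusted p = 0.760), or 0.876-fold to 1.21-fold. A processed pseudogene, *Gm15801*, lies within *Aldh18a1* on the same strand and was listed at a mean of 244.8.

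*Pycr1* (ENSMUSG00000025140, chromosome 11, 120526484 to 120539269) encodes the mitochondrial pyrroline-5-carboxylate reductase that completes proline synthesis. It was at 564, 592 and 487 normalized counts in vehicle and at 153, 287 and 356 in melatonin. All melatonin samples were below vehicle, and they differed from one another by up to 2.32-fold, more than those of any of the other 6 genes. *Pycr1* had the largest change of the 7, from 548 ± 54.5 (SD, n = 3) to 265 ± 103, a log2 change of −1.12, with SE 0.27 and a limma adjusted p of 0.00847. The lowest value rests on 164 estimated counts, a counting error of 7.81%, smaller than the differences among melatonin samples. *Myadml2* overlaps *Pycr1* by 2128 bases on the same strand in the annotation and was not among the genes listed.

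*Pycr3* encodes a cytosolic pyrroline-5-carboxylate reductase. It fell from 1072, 1090 and 1078 to 719, 811 and 695, that is, −0.54 on the log2 scale (SE 0.09, adjusted p = 0.00145 in limma). On the side of breakdown, *Prodh*, proline dehydrogenase, was between 28.0 and 90.5 and not past the threshold. It was lowest in melatonin replicate 1 and called lower when that was the only melatonin sample used (−1.54, limma adjusted p = 0.0032). *Aldh4a1*, which oxidizes pyrroline-5-carboxylate to glutamate, rose from 298, 317 and 344 to 788, 674 and 693, a log2 change of 1.16, with SE 0.11 and a limma adjusted p of 0.000112. With *Oat*, 2 of the 6 other proline genes tested were higher and 1, *Pycr3*, was lower, where 49.2% of all genes were called.

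Over the 6 lists without the 7 genes, 38 of 48 genes were tested, 7 were higher and 12 lower, and their median log2 fold change was −0.13. These 19 calls are again a share near the 49.2% of all genes.

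**Figure D2:**
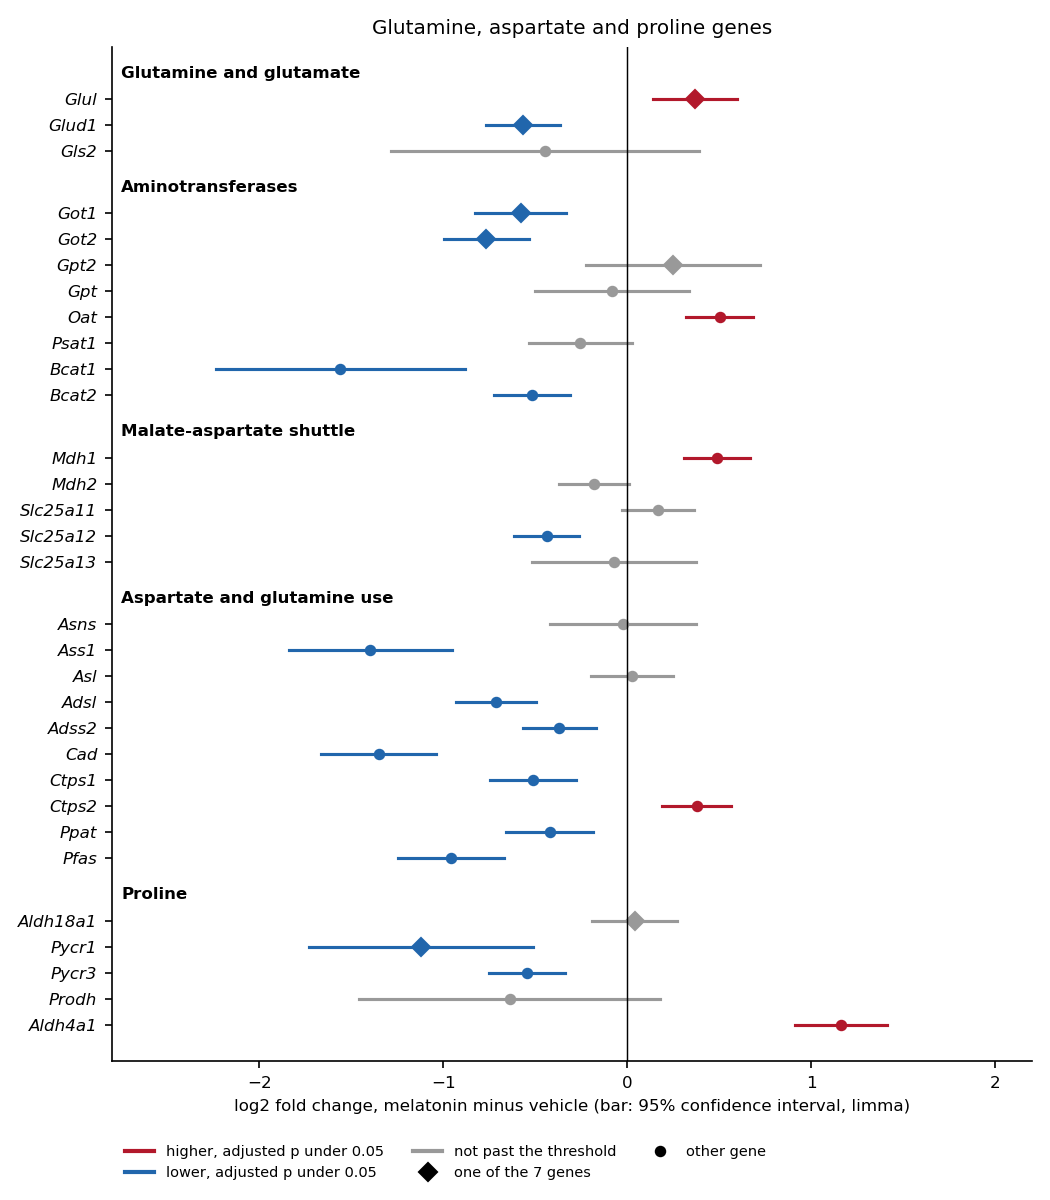
Log2 fold changes of the 7 genes (diamonds) and of 24 other genes of their pathways (circles), with bars for the 95% confidence interval from limma and colours for genes past an adjusted p-value of 0.05 (red higher, blue lower, grey neither). *Aldh4a1*, *Oat* and *Mdh1* lie to the right, and *Pycr1*, *Got2*, *Cad* and *Bcat1* lie to the left.

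Ratios of a pair of transcripts within a sample do not depend on a size factor per library, and 6 were compared with the exact two-sided permutation test, which with 3 samples against 3 cannot give a p below 0.1. All 6 had that p, also after adjustment over the 6, since the groups did not overlap in any, and 4 are given here. The log2 ratio of *Pycr1* to *Aldh18a1*, the last to the first enzyme of proline synthesis, was −2.57, −2.54 and −2.82 in vehicle and −4.31, −3.81 and −3.29 in melatonin, a mean difference of −1.16. *Glul* to *Glud1* was −2.66, −2.96 and −2.87 in vehicle and −1.77, −2.02 and −1.91 in melatonin, a difference of 0.93 in favour of *Glul*. *Gpt2* to *Got2* was higher in all melatonin samples, by 1.01 on average, including replicate 1, in which *Gpt2* itself was low. *Got1* to *Got2* moved least of these 4, by 0.19, from −1.58, −1.53 and −1.53 to −1.42, −1.22 and −1.45.

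**Figure D3:**
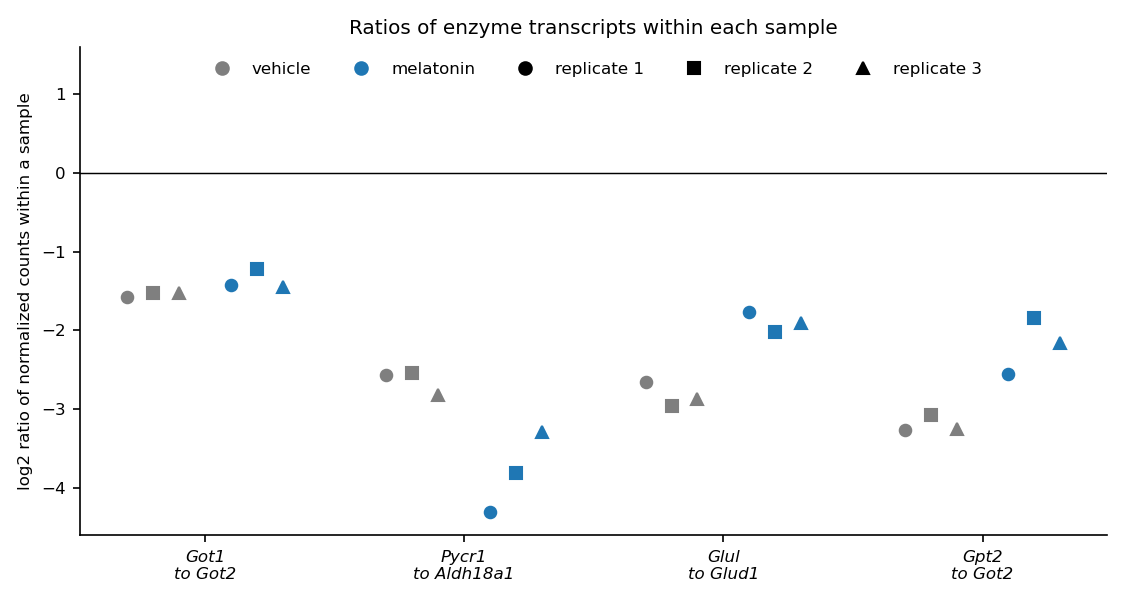
Log2 ratios of normalized counts of a pair of genes within each sample (vertical axis) for 3 vehicle (grey) and 3 melatonin (blue) samples, with symbols for the replicate number. The groups are apart in each of the 4 ratios, by −1.16 for *Pycr1* to *Aldh18a1* and by only 0.19 for *Got1* to *Got2*.

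The melatonin samples were less alike than the vehicle samples for 6 of the 7 genes, *Glud1* being the exception. Relative to the vehicle mean on the log2 scale, *Pycr1* was at −1.83 in melatonin replicate 1, −0.92 in replicate 2 and −0.62 in replicate 3, and *Got1* at −0.83, −0.44 and −0.46. *Got2* was at −0.96, −0.78 and −0.56. Melatonin replicate 1 was the lowest melatonin sample for 5 of the 7 genes (*Got1*, *Got2*, *Gpt2*, *Aldh18a1* and *Pycr1*), as it was for 37.5% of the 9990 genes averaging 100 normalized counts or more. For *Glul* it was the highest, at 0.55 against 0.20 and 0.36. Replicate 1 is also the melatonin library without *Xist*. With replicates 2 and 3 left out, an alternative chosen after the data had been seen, *Pycr1*, *Got1*, *Got2* and *Glud1* remained lower and *Glul* higher.

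**Figure D4:**
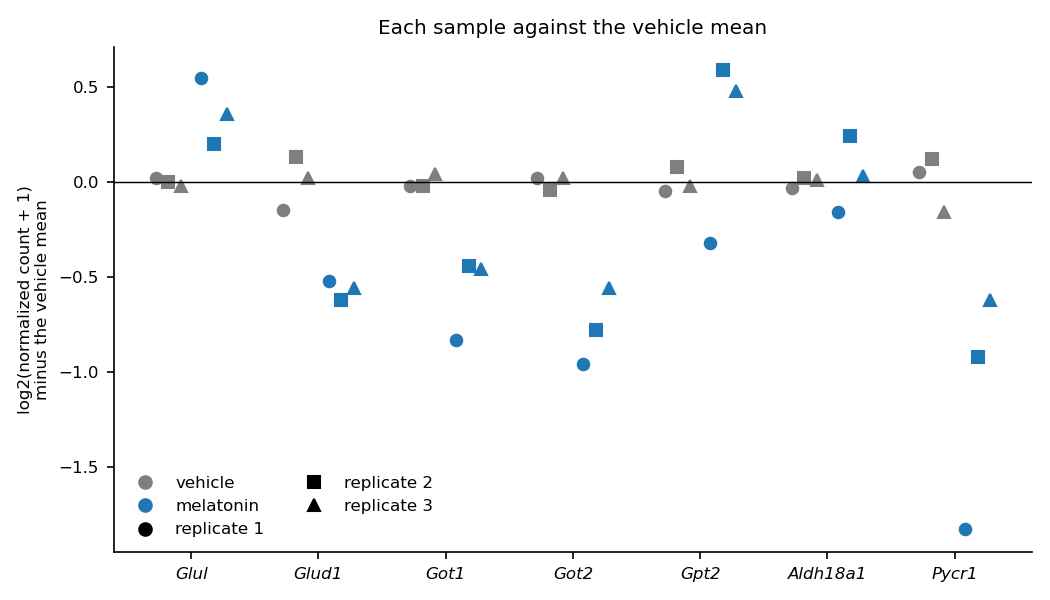
Log2 of the normalized count plus 1 minus its vehicle mean (vertical axis) for each of the 7 genes in 3 vehicle (grey) and 3 melatonin (blue) samples, with symbols for the replicate number. Vehicle samples stay within 0.16 of their mean, whereas melatonin replicate 1 (circle) falls to −1.83 for *Pycr1* and below 0 for *Gpt2*, for which replicates 2 and 3 are at 0.59 and 0.48.

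Levels of different genes were compared per kb of the longest annotated transcript. In vehicle, *Got2* was the most abundant at 2633 ± 70.5 (SD, n = 3) normalized counts per kb, followed by *Glud1* at 1792 ± 176, *Aldh18a1* at 803 ± 13.3, *Got1* at 689 ± 17.0, *Glul* at 400 ± 5.52, *Pycr1* at 183 ± 18.2 and *Gpt2* at 144 ± 6.95. In melatonin, *Glul* at 519 ± 63.1 per kb and *Got1* at 464 ± 66.2 were neighbours that did not differ beyond their spread, and *Pycr1*, at 88.6 ± 34.4, took the last place behind *Gpt2* at 177 ± 54.4. With the median transcript length, *Got1* came before *Aldh18a1* in vehicle, and *Glul* took the third place in melatonin.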

How the data were processed

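RNA of 3 melatonin-treated and 3 vehicle-treated aILC2 cultures was sequenced on a NextSeq 500. The authors used Partek Flow for trimming, STAR for alignment to mm39 and the Partek E/M algorithm for quantification against Gencode M33, and left out genes that stayed under 10 counts in every sample. They deposited a signal of normalized counts, that is, estimated counts divided by a median ratio size factor per sample. The value of one read was found from the spacing of low values. Only 64.8% of values were whole multiples of it at a tolerance of 0.01, so no count test was run. Names, positions and lengths came from Gencode M39 (GRCm39, the same assembly), which named 16334 of 16381 genes.

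The 6 samples were grouped by their titles. limma 3.58.1 in R 4.3.3 (lmFit, eBayes with trend) was applied to the log2 of the value plus 1 for genes of at least 10 in at least 1 sample, with Benjamini-Hochberg adjustment over all 14419 genes tested and a threshold of 0.05. This scale understates the change of low genes. The script was tested on simulated data. Tables used pandas 2.3.3, numpy 2.4.6 and scipy 1.17.1, figures matplotlib 3.10.9. Named genes are the 7 members, the largest called rise and fall of each pathway list, and listed partners of the members. The members and lists were chosen with earlier results of these data known. Some listed genes that the rule names are not reported here. Genes named outside that rule were chosen after their values were seen. Alternatives were pseudocounts of 0.1 and 10, filters, scalings, limma without trend or with sample weights, voom on estimated counts, the replicate number as a block, corrections for transcript length and GC content (lowess, span 0.3), each sample left out, stricter thresholds and, added after the data were seen, both *Xist*-high libraries left out.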

Additional observations from a re-analysis of the deposited data

How the results depend on the processing

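*Glud1*, *Got1*, *Got2* and *Pycr1* stayed lower and past the threshold in limma under all 19 alternatives that changed 1 choice at a time, with log2 fold changes of −0.66 to −0.44, −0.66 to −0.45, −0.87 to −0.64 and −1.37 to −0.77 and the highest adjusted p at 0.0106, 0.0182, 0.00737 and 0.0381. *Glul* stayed higher, at 0.28 to 0.45 with each sample left out in turn, and lost its call only without vehicle replicate 2 (0.37). *Gpt2* was at 0.08 to 0.53 with each sample left out, was called with sample weights (0.43) and without melatonin replicate 1 (0.53), and was −0.32 without melatonin replicates 2 and 3. *Aldh18a1* was not called under any alternative and turned negative under upper quartile scaling (−0.04), the correction for transcript length (−0.04), without melatonin replicate 2 (−0.06, in a range of −0.06 to 0.14 with each sample left out) and without melatonin replicates 2 and 3 (−0.16). The cause was not tested. A further requirement of a 1 log2 unit difference left 866 genes higher and 1392 lower of 3529 and 3565. Without melatonin replicates 2 and 3, 8 other pathway genes were higher and 17 lower, against 7 and 12. Same-numbered samples did not deviate together (r = −0.106, 0.136 and −0.194 over 9990 genes), and not every sample correlated best with its own number. With the replicate number as a block, 3160 genes were higher and 3278 lower, and no call among the 7 genes changed. The lowest value of *Pycr1* had 164 estimated counts, while those of the other 6 genes had 651 or more. *Gls2* rested on 10 to 30 estimated counts, and its log2 fold change had a 95% confidence interval from −1.28 to 0.39.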

Other observations

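The regulators whose motifs were searched were also measured. *Atf4*, of the amino acid response factor, was at 5857, 5608 and 5315 normalized counts in vehicle and at 2983, 4128 and 4970 in melatonin, a log2 fold change of −0.50 (limma adjusted p = 0.0285). *Myc* fell from 2636, 2600 and 2711 to 1476, 2106 and 1972, a log2 fold change of −0.53 (limma adjusted p = 0.0080), and *Nfe2l2*, of NRF2, rose from 916, 1006 and 922 to 2637, 2126 and 1881. Melatonin replicate 1 was the lowest sample for *Atf4* and *Myc*, as it was for *Pycr1*, *Got1* and *Got2*, which fell, and for *Gpt2* and *Aldh18a1*, which were not called.

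The genes with the most similar pattern, by Pearson's r of log2 values over the 6 samples among 9989 genes averaging 100 normalized counts or more, were *Ctps1* for *Got1* (r = 0.999), *Ipo5* for *Got2* (0.999), *Tsfm* for *Pycr1* (0.998), *Cst3* for *Glul* (0.997), *Rbms1* for *Glud1* (0.996), *Hnrnpu* for *Aldh18a1* (0.993) and *Myo6* for *Gpt2* (0.989). The points share libraries and the treatment. Genes over 0.95 numbered 1248 for *Got2* and 970 for *Got1*, but 26 for *Gpt2* and 16 for *Aldh18a1*. Between the members, *Gpt2* and *Aldh18a1* had r = 0.89 over the 6 samples, and *Got1* and *Got2* 0.97.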
